A study of Mus musculus with 12 samples.

Results

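The genes of cholesterol and fatty acid synthesis were examined in cultured mouse macrophages in which the fibronectin receptor subunit ITGA5 was neutralized. The 31 genes were taken by symbol from a list of enzymes and regulators driven by the SREBP transcription factors. The rule used no measured value, but the list was made with earlier results of these data known, so it is not independent of them. Each of the 31 genes matched 1 of the 54532 genes in the count table. They comprise 18 enzymes of the sterol pathway, 4 regulators, 1 sterol carrier and 8 enzymes that make or modify fatty acids. RNA-seq was performed on macrophages grown from the bone marrow of C57BL/6J mice, which were wild-type and 2 to 3 months old. Bone marrow cells were held for 24 h in medium with 15% fetal calf serum and 12 ng/ml CSF-1, the growth factor of macrophages, and non-adherent cells were then differentiated for 48 h at 120 ng/ml. All cells were therefore exposed to serum during differentiation, which carries lipoprotein cholesterol. The adherent cells were passaged once, onto normal dishes or onto dishes coated with fibronectin, and received 10 µg/ml of control IgG or of anti-ITGA5 neutralizing antibody for 24 h. The 4 groups were uncoated IgG, uncoated anti-ITGA5, fibronectin IgG and fibronectin anti-ITGA5, with 3 libraries each. The study describes the replicates of a group as biologically independent experiments, and whether each came from a separate mouse is not given in the sources used here.

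SREBP proteins are made as precursors in the endoplasmic reticulum, where SCAP carries them to the Golgi for cleavage when membrane sterol is low and INSIG proteins hold them back when it is high. The released fragment enters the nucleus and binds sterol regulatory elements, usually with the help of the CCAAT-binding factor NF-Y and of SP1, which binds GC boxes. SREBP-2, encoded by Srebf2, acts mainly on sterol synthesis, and the SREBP-1 proteins, encoded by Srebf1, act mainly on fatty acid synthesis. In macrophages this pathway is balanced against the export of cholesterol taken up with lipoproteins and dead cells.

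The sequence upstream of 3 members is shown because these genes are used below: Mvk, which was called in both antibody comparisons, Hmgcs1, the only matched member whose window held the sterol regulatory element searched for, and Insig1, the SREBP target that follows the replicate pattern described below. Each line gives 250 bases before the start site in RefSeq (build GRCm38.p6, plus strand), 5′ to 3′. Capitals mark TCACNCCAC (sterol regulatory element), CCAAT (or its complement ATTGG) and CACGTG (E-box), and no marked motif overlaps another.
Hmgcs1, chr13:119690101-119690350: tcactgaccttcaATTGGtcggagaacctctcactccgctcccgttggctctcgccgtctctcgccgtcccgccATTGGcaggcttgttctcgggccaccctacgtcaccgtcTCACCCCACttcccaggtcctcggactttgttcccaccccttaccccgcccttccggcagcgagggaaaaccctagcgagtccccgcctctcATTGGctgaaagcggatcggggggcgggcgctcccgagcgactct
Insig1, chr5:28071162-28071411: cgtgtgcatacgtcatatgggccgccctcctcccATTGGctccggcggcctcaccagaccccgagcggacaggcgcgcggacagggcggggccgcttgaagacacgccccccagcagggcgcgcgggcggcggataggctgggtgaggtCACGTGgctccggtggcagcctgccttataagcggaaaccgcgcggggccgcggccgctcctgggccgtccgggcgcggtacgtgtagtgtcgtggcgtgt
Mvk, chr5:114444019-114444268: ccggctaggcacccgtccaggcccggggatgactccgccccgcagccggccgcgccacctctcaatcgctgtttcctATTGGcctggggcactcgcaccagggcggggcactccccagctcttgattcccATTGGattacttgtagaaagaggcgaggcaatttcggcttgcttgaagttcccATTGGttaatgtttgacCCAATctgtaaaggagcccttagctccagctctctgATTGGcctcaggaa
The sterol regulatory element of Hmgcs1 read TCACCCCAC and began 137 bases before the start site. Motifs were searched on both strands in the RefSeq windows from 250 bases before to 50 bases after each start site, which were found for 24 of the 31 members (not Fdps, Fdft1, Sqle, Stard4, Scd1, Scd2 and Fads1). A window with TCACNCCAC was found in 1 of 24 members (4.17%) and in 1.44% of 27025 genes. CCAAT was present in 20 of 24 members (83.3%), against 41.1% of genes, and the GC box GGGCGG was present in 20 of 24 (83.3%), against 38.2%. The E-box CACGTG was present in 4 of 24 members (16.7%), against 8.09%. The 27025 genes were not limited to those expressed in these cells, and the members' shares were not set against expressed genes alone. A gene was counted when any of its windows held the motif, and a match of letters is not a measurement of binding.

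Total counts on genes ranged from 12954342 to 22075432 per library. Macrophage markers were high in all 12 libraries, the summed level of the 8 markers lying between 6129 and 9822 FPKM (fragments per kilobase of gene length, scaled for library size), whereas the neutrophil marker Ly6g, the osteoclast marker Calcr and the adipocyte marker Plin1 were listed at 0 in every library. Other markers of these cells were low, with S100a8 of neutrophils at 1.32 to 3.42 FPKM and Ctsk and Acp5 of osteoclasts at 1.66 to 3.85 and 0.87 to 3.03 FPKM. The 8 macrophage markers summed to 8977 to 9822 FPKM in uncoated IgG, 6129 to 7517 in uncoated anti-ITGA5, 9558 to 9759 in fibronectin IgG and 7336 to 7506 in fibronectin anti-ITGA5, most of it from Lyz2 (mean 7514 FPKM in uncoated IgG and 5256 in uncoated anti-ITGA5). Of the 8 markers, 4 were called lower and 1, Cd14, higher in each antibody comparison (20.8% and 27.6% of all genes were called in either direction on uncoated dishes and fibronectin), and Adgre1 was not called (168.7 and 170.3 FPKM in the uncoated groups). The 4 adipocyte markers summed to 6.92 to 7.99 FPKM in uncoated IgG, 5.18 to 5.55 in uncoated anti-ITGA5, 9.38 to 10.3 in fibronectin IgG and 5.31 to 6.45 in fibronectin anti-ITGA5, nearly all of it from Fabp4, a lipid chaperone that macrophages also express. Fabp4 was called lower with the antibody on uncoated dishes (log2 fold change -0.45, adjusted p = 0.00227 by edgeR) and on fibronectin (-0.77, 1.68e-05). In IgG cells it was called higher on fibronectin than on uncoated dishes (0.44, adjusted p = 0.00628 by edgeR). The 4 osteoclast markers summed to 4.04 to 5.15, 2.70 to 4.14, 5.74 to 7.07 and 2.93 to 5.60 FPKM in the same groups, with Acp5 called lower on fibronectin, and the 6 neutrophil markers to 2.37 to 4.04, 2.59 to 3.56, 3.02 to 4.43 and 1.82 to 3.00 FPKM, with Mpo called lower on fibronectin. The call of Mpo rests on 9 to 21 counts per library (adjusted p = 0.0499 by edgeR), and DESeq2 did not make it. The part of these shifts in the antibody comparisons was not tested, and fewer cells of a type cannot be told apart from less RNA per cell in bulk samples. The antibody targets the protein, so the Itga5 transcript does not check the labels. It was measured at 44.5 to 49.1 FPKM in uncoated IgG, 49.4 to 53.1 in uncoated anti-ITGA5, 45.5 to 49.0 in fibronectin IgG and 47.4 to 52.2 in fibronectin anti-ITGA5, and was not called (adjusted p = 0.0906 and 0.273 by edgeR). Libraries of uncoated anti-ITGA5 differed more from each other than those of the other groups (chi-square per gene 11.4 to 25.6, against 2.79 to 8.13), where counting error alone gives about 1.

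**Figure D1:**
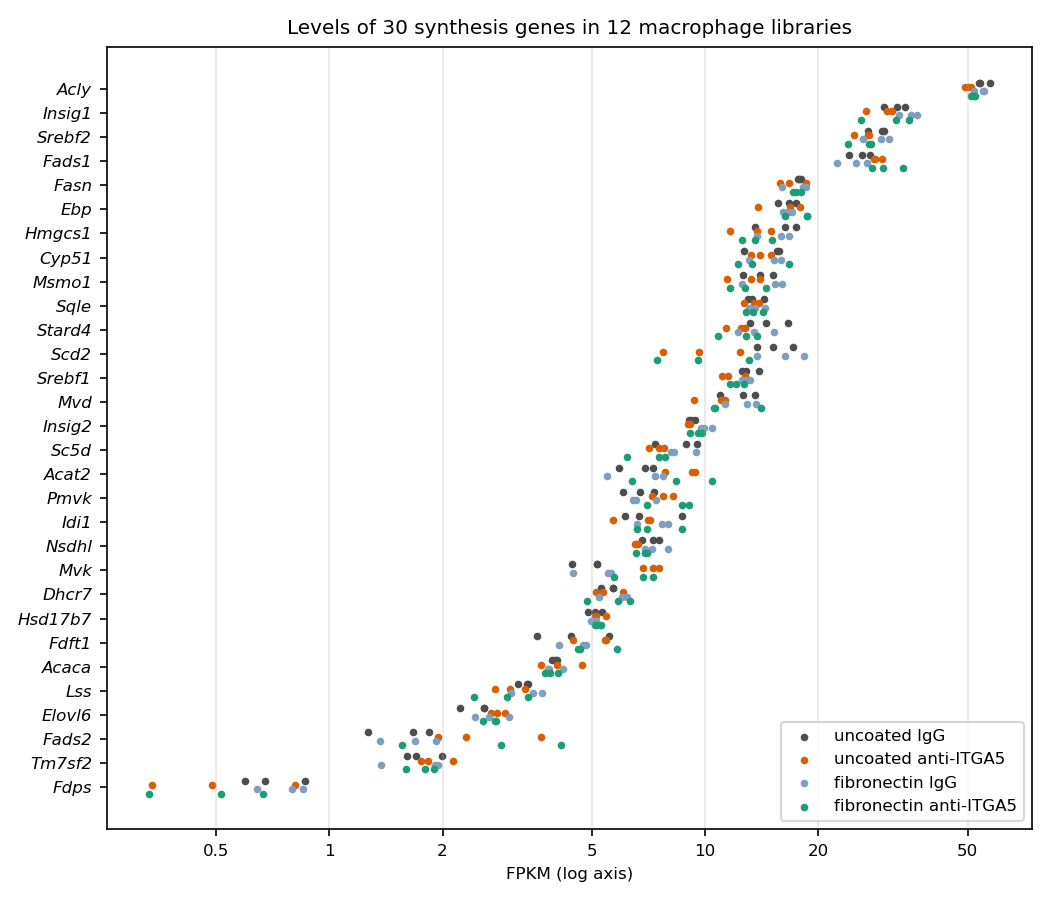
Each point is the level of 1 gene in 1 library in FPKM on a log axis, coloured by group, for the 30 members other than Scd1, which is left out because it was at 0 in a library. The members are ordered by mean level, from Acly at the top to Fdps at the bottom, and the groups of most members intermingle.

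Levels of the members spanned a wide range, and all 18 sterol enzymes were detected. Acly, which makes cytosolic acetyl-CoA from citrate, was the most abundant member at 49.3 to 57.3 FPKM over the 12 libraries. Insig1, an SREBP target whose product retains the SCAP complex, followed at 25.9 to 36.6 FPKM, Srebf2 lay at 24.0 to 30.8 FPKM and the polyunsaturated fatty acid desaturase Fads1 at 22.4 to 33.7 FPKM. Srebf1 was lower than Srebf2, at 11.1 to 13.9 FPKM, and Insig2 at 9.02 to 10.4 FPKM.

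In the mevalonate arm, which turns acetyl-CoA into farnesyl units, HMG-CoA synthase Hmgcs1 lay at 11.6 to 17.4 FPKM, the decarboxylase Mvd at 9.33 to 14.0, the kinase Pmvk at 6.06 to 9.06, and the isomerase Idi1 at 5.67 to 8.71. Farnesyl diphosphate synthase Fdps was the lowest sterol enzyme, at 0.33 to 0.86 FPKM and 23 to 73 counts per library, so its fold changes are imprecise. In the squalene arm, squalene epoxidase Sqle lay at 12.7 to 14.5 FPKM, squalene synthase Fdft1 at 3.58 to 5.82 and lanosterol synthase Lss at 2.42 to 3.68. Fdft1 overlaps Ctsb on the opposite strand, which had 159778 to 338521 counts, and the strand used in counting is not given in the sources used here, so the level of Fdft1 is uncertain. The same holds for Cyp51, which overlaps Akap9, and Srebf1, which overlaps Rai1. Fdps overlaps Gm43738 and Gm22935 on its own strand, and Tm7sf2 overlaps Vps51 and Gm28374 on its own strand. How reads shared with such genes were counted is not given either, so the low levels of Fdps and Tm7sf2 are also uncertain.

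Of the enzymes from lanosterol to cholesterol, the isomerase Ebp was the most abundant at 13.8 to 18.7 FPKM, the demethylase Cyp51 lay at 12.2 to 16.7 and the methyl oxidase Msmo1 at 11.4 to 16.1. The dehydrogenase Nsdhl lay at 6.53 to 7.95 FPKM, the ketoreductase Hsd17b7 at 4.88 to 5.46, the last reductase Dhcr7 at 4.84 to 6.30 and the reductase Tm7sf2 at 1.37 to 2.13. In the fatty acid arm, fatty acid synthase Fasn lay at 15.8 to 18.5 FPKM, acetyl-CoA carboxylase Acaca at 3.65 to 4.69, the elongase Elovl6 at 2.23 to 3.00 and the desaturase Fads2 at 1.27 to 4.13. Among the stearoyl-CoA desaturases, which introduce the double bond of oleate, Scd2 lay at 7.46 to 18.3 FPKM while Scd1 had 0 to 8 counts per library and was not tested. The 0 counts of Scd1 in uncoated IgG replicate 2 allow up to 3 of its 17609784 total counts, counting error only.

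The antibody comparisons addressed how ITGA5 neutralization affected these genes. On uncoated dishes, Mvk and Acat2 were higher and Scd2 and Stard4 lower in anti-ITGA5 than in IgG cells, and the other 26 members tested were not called. Members went both ways, with log2 fold changes from -0.63 to 0.72: the median was -0.06, against 0.01 for all genes tested, and the median size regardless of sign was 0.13, against 0.17. The 4 called members were 13.3% of the 30 tested, against 20.8% of 12924 genes called by the same rule (11% higher and 9.79% lower), and 8 members (26.7%) had an unadjusted p under 0.05, against 33.5% of genes. In 5 members all 3 anti-ITGA5 libraries lay above, and in 4 below, all 3 IgG libraries, against 18.7% and 19.4% of all genes tested. Calls rest on the quasi-likelihood test of edgeR, with p-values adjusted by Benjamini-Hochberg over all genes, at an adjusted p of 0.05 or less, and DESeq2 called the same 4 members. The count was 12 of 30 without uncoated anti-ITGA5 replicate 2 (29.1% of all genes), 1 without uncoated IgG replicate 1 (11%), 2 without uncoated IgG replicate 2 (13.5%) and 2 without uncoated anti-ITGA5 replicate 1 (13.1%). When every gene with at least 1 count was kept, 5 of 31 members (16.1%) were called, against 10.6% of 25741 genes. The genes called rose only from 2684 to 2740 while the genes tested rose from 12924 to 25741. The share of all genes thus fell through the larger base, and the order of the 2 shares is no result about the members. With a mean of at least 50 counts, 4 of 29 members (13.8%) were called, against 27.1% of genes.

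Mvk, the mevalonate kinase (chromosome 5, 114444269 to 114460591), was measured at 4.41, 5.16 and 5.14 FPKM in uncoated IgG and at 6.82, 7.25 and 7.54 FPKM in uncoated anti-ITGA5, without overlap. Its log2 fold change was 0.56 (SE 0.09, 1.47-fold, adjusted p = 0.00203 by edgeR's quasi-likelihood test). Acat2, the thiolase that starts the pathway (chromosome 17, 12942890 to 12960747), was measured at 6.94, 7.25 and 5.90 FPKM in IgG and at 9.39, 9.22 and 7.80 FPKM in anti-ITGA5, also without overlap. Acat2 has a close paralog, Acat3, so shared reads make its level uncertain. Its log2 fold change was 0.40 (SE 0.11, adjusted p = 0.0231 by edgeR's test). Acat2 lost its call in 5 of 16 alternatives, with adjusted p up to 0.127 over the edgeR, DESeq2 and limma fits. Among these were the fits without uncoated IgG replicate 1, IgG replicate 3 or anti-ITGA5 replicate 1. Both enzymes belong to the mevalonate arm, whose 7 members had a median log2 fold change of -0.12, with 4 of the 7 below 0.

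Scd2 (chromosome 19, 44293676 to 44306864) was measured at 15.2, 17.1 and 13.7 FPKM in uncoated IgG and at 9.62, 12.4 and 7.73 FPKM in uncoated anti-ITGA5. No anti-ITGA5 library reached the lowest IgG library, and the log2 fold change was -0.63 (SE 0.15, a ratio of 0.644, adjusted p = 0.0116 by edgeR's test). It was not called without uncoated IgG replicate 1 (adjusted p = 0.0505 by edgeR) or replicate 2 (0.0642). Stard4, a cytosolic carrier of cholesterol between membranes (chromosome 18, 33199355 to 33213862), was measured at 14.5, 16.6 and 13.2 FPKM in IgG and at 12.5, 12.8 and 11.4 FPKM in anti-ITGA5. Its groups did not overlap either, and its log2 fold change was -0.27 (SE 0.09, adjusted p = 0.0489 by edgeR's test). Stard4 lost its call in 9 of 16 alternatives, 4 of which left out a library (uncoated IgG 1 or 2, or uncoated anti-ITGA5 1 or 3), with adjusted p from 0.00385 to 0.24 over the edgeR, DESeq2 and limma fits. Fads2, a partner of Fads1 in making polyunsaturated fatty acids, was measured at 1.27, 1.84 and 1.66 FPKM in IgG and at 2.31, 3.66 and 1.94 FPKM in anti-ITGA5. Its groups did not overlap and its log2 fold change, 0.72 (SE 0.29, a ratio of 1.65), was the largest of the 30 members in size, but it was not called (adjusted p = 0.105 by edgeR).

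**Figure D2:**
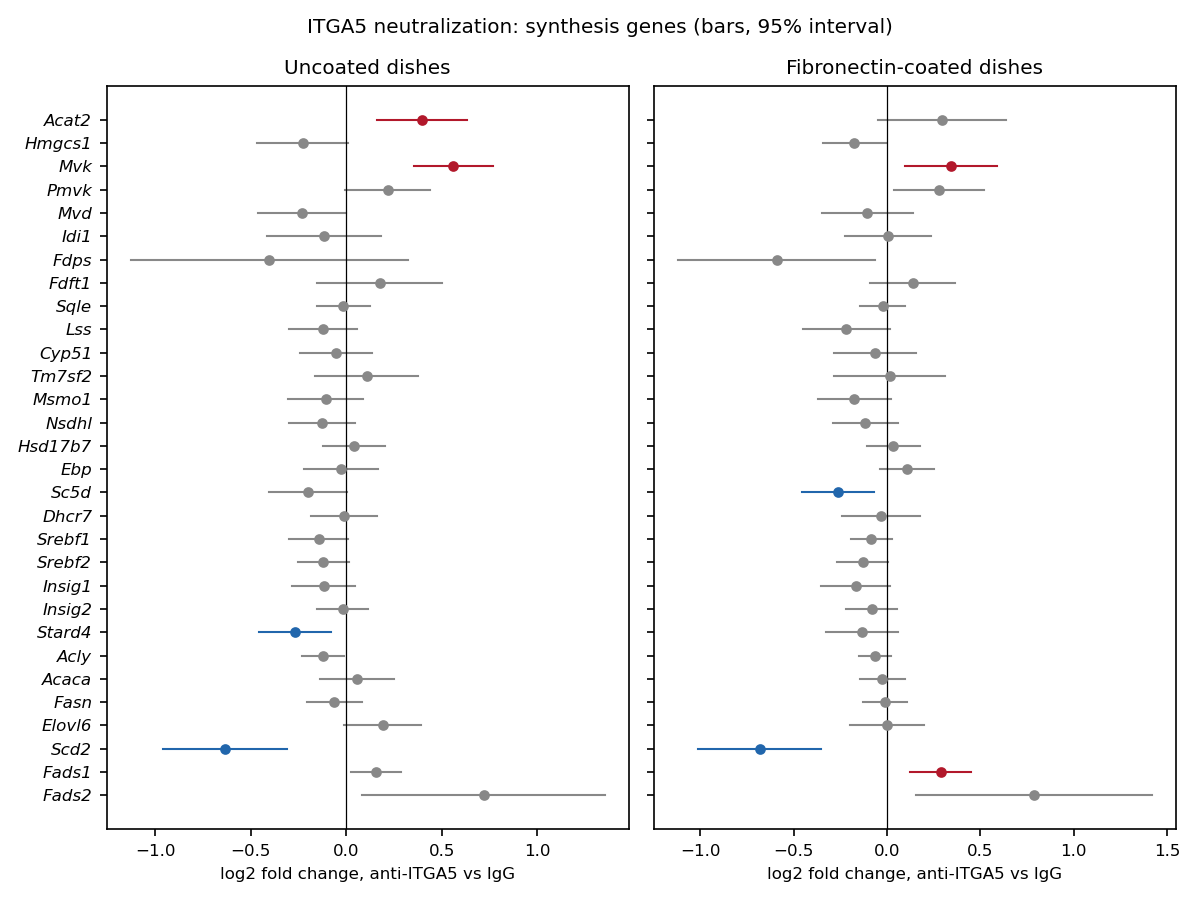
Points are log2 fold changes of anti-ITGA5 against IgG by edgeR for the 30 tested members on uncoated (left) and fibronectin-coated (right) dishes, and bars are 95% intervals, with red for members called higher, blue for lower and grey for not called. Mvk was called higher and Scd2 lower in both panels, and the intervals of Fdps and Fads2 are the widest.

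On fibronectin, Mvk and Fads1 were higher and Scd2 and Sc5d lower in anti-ITGA5 than in IgG cells, so Mvk and Scd2 were called on both coatings and 24 members on neither. With the replicate number as a block on fibronectin, described below, Acat2 and Stard4 join them, and 16 members were called on neither. With the block on both coatings Hmgcs1 was also called lower on both (adjusted p = 0.0141 and 0.00905 by edgeR). The 4 called members were 13.3% of the 30 tested, against 27.6% of 12916 genes (14.4% higher and 13.2% lower), and the median log2 fold change of the members was -0.05, against -0.004 for all genes. DESeq2 called the same members and Fads2. The count was 2 without fibronectin IgG replicate 1 (19.5% of all genes) or replicate 2 (21.6%), 6 of 30 (20%) without fibronectin anti-ITGA5 replicate 2 (21.1%) and 0 with limma on log2(FPKM + 1) (22.9%), where 5 members had an unadjusted p under 0.05. When every gene with at least 1 count was kept, 11 of 31 members (35.5%) were called, 4 higher and 7 lower, against 14.5% of 25336 genes. The genes called rose only from 3565 to 3676 there, so the share of all genes fell through the larger base. With a mean of at least 50 counts, 4 of 30 members (13.3%) were called, against 33.3% of genes. The replicate block, with the main filter, called 46.7% of members against 35.1% of genes, so whether the members' share lay below or above turned on the setting. All 3 anti-ITGA5 libraries lay above IgG for 2 members and below for 2, against 21.7% and 20.6% of genes.

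Mvk was measured at 5.61, 5.53 and 4.46 FPKM in fibronectin IgG and at 5.72, 7.25 and 6.85 FPKM in fibronectin anti-ITGA5. The lowest anti-ITGA5 library was close to the highest IgG library, and the log2 fold change was 0.34 (SE 0.11, 1.27-fold, adjusted p = 0.0418 by edgeR's test). Leaving out any library but anti-ITGA5 replicate 1 took the adjusted p of Mvk to between 0.0576 and 0.167 in edgeR. Fads1 (chromosome 19, 10182888 to 10196870) was measured at 25.3, 27.0 and 22.4 FPKM in IgG and at 29.7, 33.7 and 27.9 FPKM in anti-ITGA5, with a log2 fold change of 0.29 (SE 0.08, adjusted p = 0.0139 by edgeR's test). Its groups did not overlap, but Fads1 lost its call in 5 of 16 alternatives, with adjusted p up to 0.159 over the edgeR, DESeq2 and limma fits. These were the fits without fibronectin IgG replicate 3 or anti-ITGA5 replicate 2, and each limma setting.

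Scd2 was measured at 16.3, 18.3 and 13.8 FPKM in fibronectin IgG and at 9.56, 13.1 and 7.46 FPKM in fibronectin anti-ITGA5. The groups did not overlap, and the log2 fold change of -0.68 (SE 0.15, a ratio of 0.623, adjusted p = 0.00537 by edgeR's test) was close in size to that on uncoated dishes. Sc5d, the lathosterol desaturase near the end of the sterol pathway (chromosome 9, 42251595 to 42264256), was measured at 8.26, 9.44 and 8.12 FPKM in IgG and at 7.52, 7.84 and 6.19 FPKM in anti-ITGA5. Its log2 fold change was -0.26 (SE 0.09, adjusted p = 0.045 by edgeR's test), and its groups did not overlap. Sc5d lost its call in 9 of 16 alternatives, 4 of which left out a library (fibronectin IgG 1 or 2, or fibronectin anti-ITGA5 1 or 3), with adjusted p from 0.00173 to 0.25 over the edgeR, DESeq2 and limma fits.

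**Figure D3:**
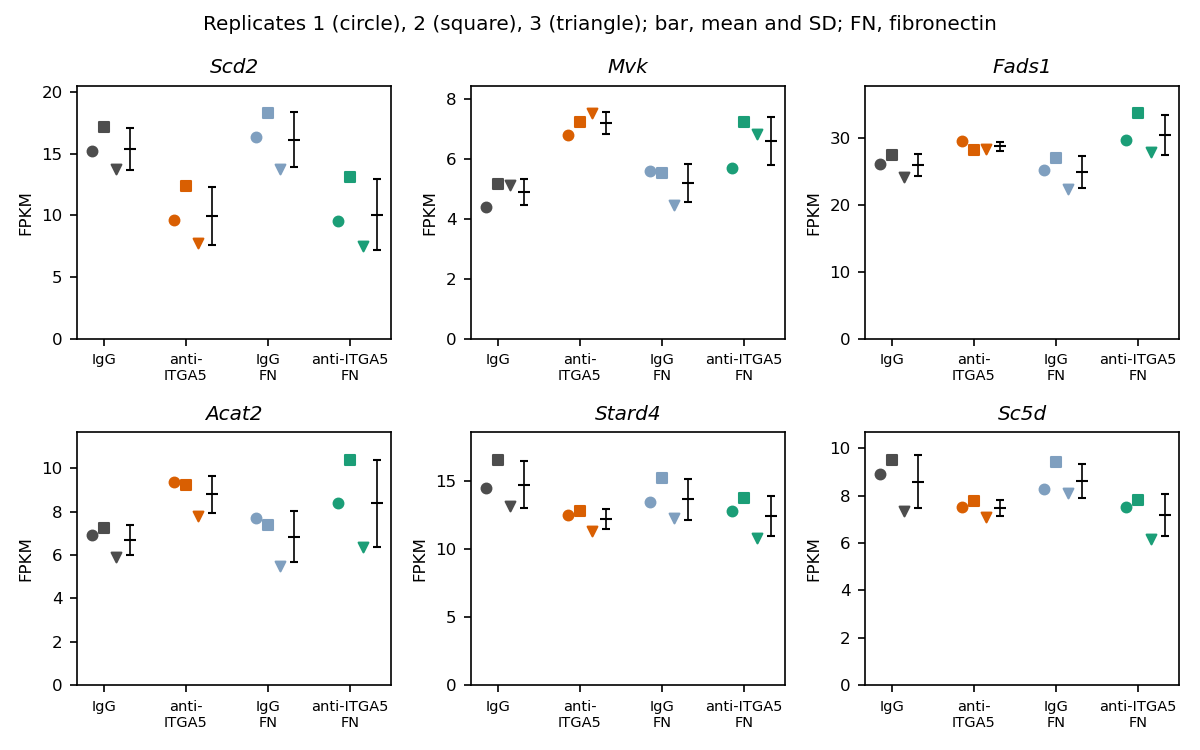
FPKM of the 6 members called in either antibody comparison, with a circle, square or triangle for replicates 1, 2 and 3 of each group, and the mean and SD beside them. Scd2 lies at 7.46 to 13.1 FPKM in the 6 anti-ITGA5 libraries and at 13.7 to 18.3 FPKM in the 6 IgG libraries, and replicate 2 is the highest library for Scd2 in each group.

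The count on fibronectin depended on the replicate numbers. In the fibronectin comparison, deviations from the group mean correlated between same-numbered libraries over 10411 genes (r = 0.105, 0.306 and 0.330), and a fit with the replicate number as a block called 14 of 30 members (46.7%), against 35.1% of all genes (18% higher and 17.2% lower). Of the mevalonate enzymes, Mvk, Acat2 (log2 fold change 0.29, adjusted p = 0.0104 by edgeR) and Pmvk (0.28, 0.0293) were higher with the block, and Hmgcs1 (-0.18, 0.00905) and Fdps (-0.61, 0.027) were lower. Lss, Msmo1 and Sc5d of the later sterol steps, Srebf2, Insig1 and the carrier Stard4 were also lower, with log2 fold changes from -0.26 (Sc5d) to -0.13 (Srebf2). In the fatty acid arm Fads1 and Fads2 were higher, Fads2 with a log2 fold change of 0.76, and Scd2 was lower (-0.70, adjusted p = 2.1e-11 by edgeR). The labels give no shared animal, litter or day for a number.

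The effect of the coating was examined by setting fibronectin against uncoated dishes under each antibody. In IgG cells edgeR called 0 of 30 members, against 0.449% of 12925 genes, with 1 member (Insig1) at an unadjusted p under 0.05 and 0 called by DESeq2. In anti-ITGA5 cells it called 0 of 30 members, against 0% of 12863 genes, with 0 members at an unadjusted p under 0.05 and 0 called by DESeq2. The log2 differences of the members lay between -0.11 and 0.12 in IgG and between -0.14 and 0.16 in anti-ITGA5 cells. For Scd2 the difference was 0.07 (95% interval -0.11 to 0.25) in IgG and 0.01 (-0.45 to 0.47) in anti-ITGA5 cells.

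The test of whether the antibody effect differed between coatings, over all 12 libraries, called 0 of 30 members, against 0.0223% of 13455 genes, with 0 members at an unadjusted p under 0.05 and 0 called by DESeq2. For Scd2 the difference in log2 fold change, fibronectin minus uncoated, was -0.05 (95% interval -0.59 to 0.49), and for Mvk it was -0.22 (-0.55 to 0.11). For Acat2 it was -0.11 (-0.57 to 0.36), for Stard4 0.13 (-0.17 to 0.43), for Sc5d -0.07 (-0.37 to 0.23) and for Fads1 0.13 (-0.09 to 0.36). The intervals are wide beside these effects, so calls on 1 coating and not on the other are not shown to differ.

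Within each group the members varied together from library to library. Replicate 3 was the lowest library of its group in all 4 groups for 18 of 30 members (60%), against 3.67% of 13455 genes, and replicate 2 was the highest in all 4 groups for 11 of 30 (36.7%), against 3.94%. Both held for 9 members, Idi1 and Lss of the earlier steps, Msmo1, Sc5d and Dhcr7 of the later sterol steps, Insig1, Stard4, Fasn and Scd2, against 0.996% of genes. The median of the members was higher in replicate 2 than in replicate 3 by 0.17 log2 units in uncoated IgG, 0.23 in uncoated anti-ITGA5, 0.22 in fibronectin IgG and 0.29 in fibronectin anti-ITGA5. The scaling of libraries holds the median over all genes near 0, so the range between the highest and lowest library of a group was also compared. Its median was 0.22, 0.25, 0.26 and 0.32 log2 units for the members in these groups, and 0.18, 0.23, 0.17 and 0.19 for all genes. The median size of the antibody effect was 0.13 on uncoated dishes and 0.12 on fibronectin for the members, and 0.17 and 0.16 for all genes. This effect compares groups of 3 libraries, so it is not on the same scale as a range between single libraries.

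Insig1 illustrates the pattern. It was measured at 32.5, 34.1 and 29.9 FPKM in uncoated IgG, 30.5, 31.4 and 26.9 in uncoated anti-ITGA5, 35.4, 36.6 and 32.7 in fibronectin IgG and 32.3, 35.0 and 25.9 in fibronectin anti-ITGA5. Replicate 3 was the lowest library each time. Hmgcs1, whose upstream sequence held the sterol regulatory element, was measured at 16.3, 17.4 and 13.6 FPKM, 13.7, 15.0 and 11.6, 16.7, 16.0 and 13.8, and 13.6, 15.1 and 12.5 in the same groups, replicate 3 again being the lowest. Mvk and Acaca were exceptions, with replicate 3 the lowest in 1 of 4 groups.

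Proliferation genes followed the same libraries in part, replicate 3 being the lowest for 14 of 17 in uncoated IgG, 14 in uncoated anti-ITGA5 and 17 in each fibronectin group, against 31.0 to 36.1% of all genes. Replicate 2 was the highest for 16, 15 and 13 of 17 in uncoated IgG, fibronectin IgG and fibronectin anti-ITGA5, but in uncoated anti-ITGA5 for 8, the same number as replicate 1. The cholesterol efflux genes did the reverse, replicate 3 being the highest for 10 of 10 in both uncoated groups, 6 in fibronectin IgG and 9 in fibronectin anti-ITGA5, against 31.3 to 36.0% of all genes. In the other sterol genes described below, replicate 3 was the lowest for 10, 7, 8 and 8 of 15 in the 4 groups and replicate 2 the highest for 6, 7, 6 and 6. In the other fatty acid and lipid genes, replicate 3 was the lowest for 7, 10, 13 and 11 of 19 and replicate 2 the highest for 9, 8, 10 and 9. The groups are uncoated IgG, uncoated anti-ITGA5, fibronectin IgG and fibronectin anti-ITGA5. The part of any of these lists in the pattern of the synthesis genes was not tested.

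**Figure D4:**
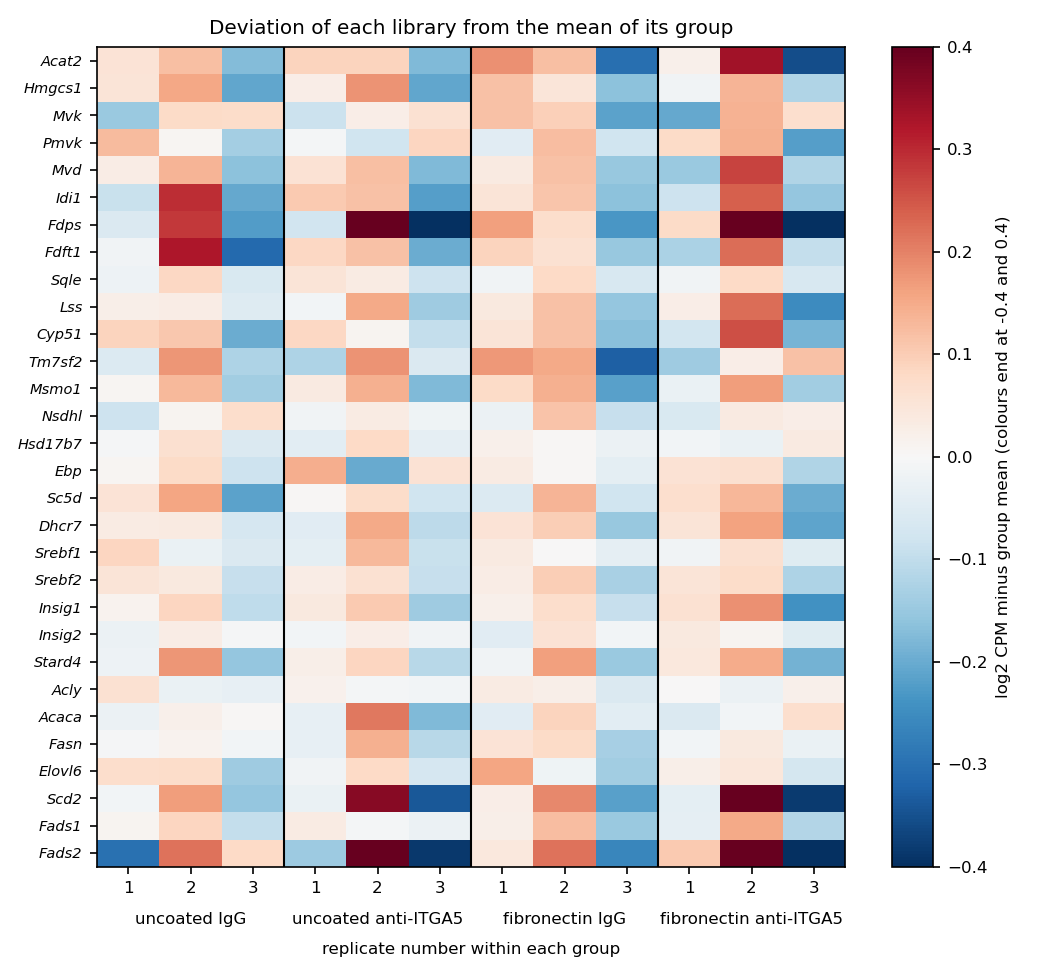
Each cell is the log2 CPM (scaled counts) of 1 member in 1 library minus the mean of its group, with red above and blue below the mean, and columns are replicates 1, 2 and 3 of each group. Replicate 2 is mostly red and replicate 3 mostly blue in each of the 4 groups.

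Other genes of the sterol pathway, which are not among the 31, changed in both directions. Of 15 tested, 4 were called higher and 4 lower on uncoated dishes, and 4 higher and 3 lower on fibronectin, against 20.8% and 27.6% of all genes called in either direction. Lbr, which encodes a nuclear envelope protein with sterol reductase activity, was measured at 9.82, 10.1 and 8.32 FPKM in uncoated IgG and at 16.5, 16.8 and 13.5 FPKM in uncoated anti-ITGA5. The libraries did not overlap. The log2 fold change of Lbr was 0.73 (adjusted p = 0.000536 by edgeR) on uncoated dishes and 0.83 on fibronectin. Tmem97, an SREBP target, rose by 0.49 and 0.48 and Erlin1, an endoplasmic reticulum protein that restricts SREBP activation, by 0.41 and 0.38 in log2 units on uncoated dishes and fibronectin. Among those called lower, Por, which passes electrons to Cyp51 and Sqle and was chosen after its values were seen, fell by 0.22 on uncoated dishes and by 0.25 on fibronectin. The median over the 15 genes was -0.01 in both comparisons.

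Of other fatty acid and lipid genes, 1 was called higher and 2 lower of 19 tested on uncoated dishes, and 2 higher and 3 lower of 18 on fibronectin, near the 20.8% and 27.6% of all genes. Lpin1, a phosphatidate phosphatase, fell by 0.55 log2 units on uncoated dishes and by 0.68 on fibronectin. Slc25a1, the mitochondrial citrate carrier that supplies Acly, fell by 0.33 and by 0.25, and Tecr, a reductase of fatty acid elongation, was higher by 0.19 on uncoated dishes. Acss2, which makes acetyl-CoA from acetate, fell by 0.71 on fibronectin, where it was measured at 1.11, 1.19 and 0.97 FPKM in IgG and at 0.60, 0.73 and 0.68 FPKM in anti-ITGA5.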

How the data were processed

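Libraries were made from oligo(dT)-enriched RNA and sequenced as 150 bp paired-end reads. Per the labels and the study's methods, the authors aligned reads with TopHat2 2.0.9 to GRCm38.p6 and counted them with HTSeq 0.6.1. The strand and annotation release used are not given in the sources used here. The authors deposited raw read counts per gene, without normalization, and FPKM, which equal the count over gene length and over a scaled library total. Counts were tested with edgeR 4.0.16 (R 4.3.3) after filterByExpr (minimum count 10, minimum total 15) and TMM scaling, each pair of groups on its own 6 libraries and the interaction over all 12. DESeq2 1.42.0, limma 3.58.1 on log2 FPKM, other scalings and filters, a replicate block and leaving out each library were alternatives. All members were named, with fold changes for called members, and, from each other list, up to 3 called genes with the largest fold change per antibody comparison. Members named for the replicate pattern or under the block, and Fads2, were chosen after their values were seen. The members and lists were chosen with earlier results of these data known. In counts simulated at these depths, edgeR recovered 141 of 200 genes changed by 0.5 log2 units on uncoated dishes and 150 of 200 on fibronectin. The simulation changed only these 200 genes, picked above a minimum level, and its libraries shared no deviations by replicate number. The median member effects were smaller, at 0.13 and 0.12, so the recovery does not give the power to call the members. The replicate numbers were taken to pair the fibronectin libraries because all 3 correlations exceeded 0.1, a check on the data only.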

Additional observations from a re-analysis of the deposited data

How the results depend on the processing

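No called member changed direction. The median log2 fold change of the members crossed 0 in the coating comparisons, from 0.02 to between -0.04 and 0.08 in IgG and from 0.01 to between -0.06 and 0.07 in anti-ITGA5 cells, and in the interaction, from -0.01 to between -0.07 and 0.06, so these medians have no stable sign. Leaving out single libraries gave these bounds, and with total counts both coating medians also fell just below 0. On uncoated dishes the members called higher were 2, and 1 with all 12 libraries in the fit, with unfiltered limma on log2(FPKM + 1) and with a log2 fold change of at least 0.5, and 3 with total counts, which added Fads1. The members called lower were 2, 3 when every gene with at least 1 count was kept, which added Hmgcs1, and 1 with total counts, with limma on log2(FPKM + 0.1) and with a log2 fold change of at least 0.5, and 0 with limma on log2(FPKM + 1) with or without the filter. With all 12 libraries they were still 2, with Acly in place of Stard4. On fibronectin the members called higher were 2, and 4 when every gene with at least 1 count was kept, and 0 with each limma setting and with a log2 fold change of at least 0.5. The members called lower were 2, and 7 when every such gene was kept (11 of 31 members called in all, 35.5%, against 14.5% of genes), 1 with total counts, with all 12 libraries and with a log2 fold change of at least 0.5, and 0 with each limma setting. With limma on log2(FPKM + 1), 5 members had an unadjusted p under 0.05 there. In both coating comparisons and the interaction 0 members were called in every alternative.

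With the replicate block, 5 members were called higher and 9 lower on fibronectin. On uncoated dishes, where same-numbered libraries correlated by 0.07, 0.11 and 0.20, the block called 2 higher and 3 lower, adding Hmgcs1 (16.7%, against 23% of all genes), and it changed no call of a coating comparison or the interaction. Of 18 same-numbered pairs of libraries 17 correlated best with their own number.

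Leaving out each library in turn gave 1 to 3 members higher and 0 to 9 lower on uncoated dishes, and 0 to 4 higher and 1 to 6 lower on fibronectin. Without uncoated anti-ITGA5 replicate 2, 12 of 30 members (40%) were called, against 29.1% of all genes, 9 of them lower. The called members (with the share of all genes called) numbered 1 without uncoated IgG replicate 1 (11%), 2 without IgG replicate 2 (13.5%) or anti-ITGA5 replicate 1 (13.1%), 4 without IgG replicate 3 (11.8%) and 3 without anti-ITGA5 replicate 3 (16.1%). On fibronectin they numbered 2 without IgG replicate 1 (19.5%) or 2 (21.6%), 5 without IgG replicate 3 (20%), 3 without anti-ITGA5 replicate 1 (18.4%), 6 without replicate 2 (21.1%) and 5 without replicate 3 (30%), where 5 of 30 is 16.7%. Mvk on uncoated dishes was called in all 16 alternatives (adjusted p 1.19e-05 to 0.0233 over edgeR, DESeq2 and limma fits), Scd2 in 12 of 16 on uncoated dishes and 13 of 16 on fibronectin, and Mvk on fibronectin in 8 of 16. Acat2 kept its call in 11 of 16, Fads1 in 11, Stard4 in 7 and Sc5d in 7. By edgeR, Acat2 was lost without uncoated IgG 1 or 3 or anti-ITGA5 1, Stard4 without IgG 1 or 2 or anti-ITGA5 1 or 3, Sc5d without fibronectin IgG 1 or 2 or anti-ITGA5 1 or 3, and Fads1 without fibronectin IgG 3 or anti-ITGA5 2. The cause of these changes was not tested.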

Other observations

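Genes of cholesterol efflux and of its regulator, the oxysterol receptor LXR, were tested as a further list. Of 10 tested, 0 were called higher and 4 lower on uncoated dishes, and 0 higher and 5 lower on fibronectin (9.79% and 13.2% of all genes were called lower), with median log2 fold changes of -0.31 and -0.37. Apoe, the apolipoprotein that accepts exported cholesterol, was measured at 707.8, 656.9 and 713.6 FPKM in uncoated IgG and at 447.6, 359.1 and 477.7 FPKM in uncoated anti-ITGA5. On fibronectin it was measured at 721.3, 648.0 and 644.7 FPKM in IgG and at 416.5, 393.8 and 418.7 FPKM in anti-ITGA5. All anti-ITGA5 libraries lay below all IgG libraries, with log2 fold changes of -0.69 (adjusted p = 0.000356 by edgeR) and -0.71 (adjusted p = 2.23e-06 by edgeR). Abca1, the transporter that exports cholesterol to apolipoproteins, fell by 0.64 and by 0.67 log2 units, Rxra, the partner of LXR, fell by 0.37 on uncoated dishes, and Mylip, which degrades the LDL receptor, fell by 0.48 on fibronectin.

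Proliferation genes rose on both coatings, with 14 of 17 called higher and 0 lower in each (11% and 14.4% of all genes were called higher) and medians of 1.28 and 1.35 log2 units. Plk1, Cdc20 and Ccnb2, which act in mitosis, were higher by 2.18, 2.08 and 2.06 log2 units on uncoated dishes and by 2.27, 2.24 and 2.17 on fibronectin.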
